A study of Mus musculus with 6 samples.

Results

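Enzymes that cut the extracellular matrix, and the proteins that restrain them, were followed in primary mouse fibroblasts carrying the Delta9 allele of Lmna. The genes were 38 named matrix metalloproteases (MMPs), tissue inhibitors of metalloproteases (TIMPs), ADAM and ADAMTS proteases, plasminogen activators, serpins, and the serine proteases Fap, Htra1 and Htra3. Membership rested on gene names and used no expression value, though the list was chosen with earlier results of these data known. Of these, 35 had at least 1 probe set annotated to that symbol only, among 18193 genes so measured, and Mmp15, Mmp28 and Serpine2 were not analysed here. A gene with several probe sets was represented by the one with the highest mean over all arrays.

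The series compared 3 samples of Delta9 fibroblasts with 3 of wild-type (WT) fibroblasts, all of strain C57bl6X129S3/J. Both groups were lines derived from siblings, at passage 3 and without serum for 72 hours when RNA was taken, and each sample was read on 1 Affymetrix array. The sources name the cells both adult and post-natal, and give no exact age, no number of animals and not how many copies of the allele the cells carried. The p-values therefore measure the spread between these samples. Lmna, which encodes lamins A and C of the nuclear lamina, read 7.07, 6.95 and 6.11 log2 in Delta9 and 8.35, 8.89 and 8.78 in WT. The groups did not overlap, and it is not known here whether this probe set covers the sequence that the allele alters. Markers of fibroblasts such as Col1a1 and Pdgfra were bright in every sample, while markers of macrophages such as Lyz2 and Csf1r were bright too.

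Matrix metalloproteases are made as inactive proenzymes and cut collagens, proteoglycans and other proteases once their prodomain is removed. TIMPs block the active site of these enzymes, and Reck, a membrane-anchored glycoprotein, restrains several of them at the cell surface. Plasmin, released from plasminogen by its activators, is a second route that degrades matrix and activates some MMPs. Fibroblasts are a main source of many of these proteins in connective tissue.

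None of the 35 genes passed an adjusted p of 0.05 in Delta9 against WT (limma, Benjamini-Hochberg over all genes), where 0.0605% of all genes did. At an unadjusted p under 0.05, 6 were lower in Delta9, namely Mmp16, Reck, Timp3, Adamts9, Mmp23 and Serpinf1, and 1 was higher, Plaur. Over all genes 6.06% were lower and 4.54% higher by that rule. The median difference of the 35 genes was -0.17 log2, against -0.01 over all genes. Of the 35, 22 (62.9%) had lower and 13 higher mean values, where 53.2% of all genes had lower ones. The median of the 35 genes was 0.0060 without Delta9 replicate 3 and -0.03 without WT replicate 3. The count of lower genes was 2 without WT replicate 3, and the count of higher genes was 4 without Delta9 replicate 3 and 0 without Delta9 replicate 2. Over all genes these fits gave 4.24% lower, 6.75% higher and 3.78% higher, in that order. The groups did not overlap for 7 genes, 5 lower and 2 higher, against 9.99% lower and 7.27% higher over all genes. With every probe set tested on its own, none of the 72 probe sets of these genes passed (limma; 10 were lower and 2 higher at an unadjusted p under 0.05), where 0.0355% of all probe sets did. At that unadjusted p, 5.16% of all probe sets were lower and 3.78% higher, and the probe sets of 1 gene are not independent of each other.

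**Figure D1:**
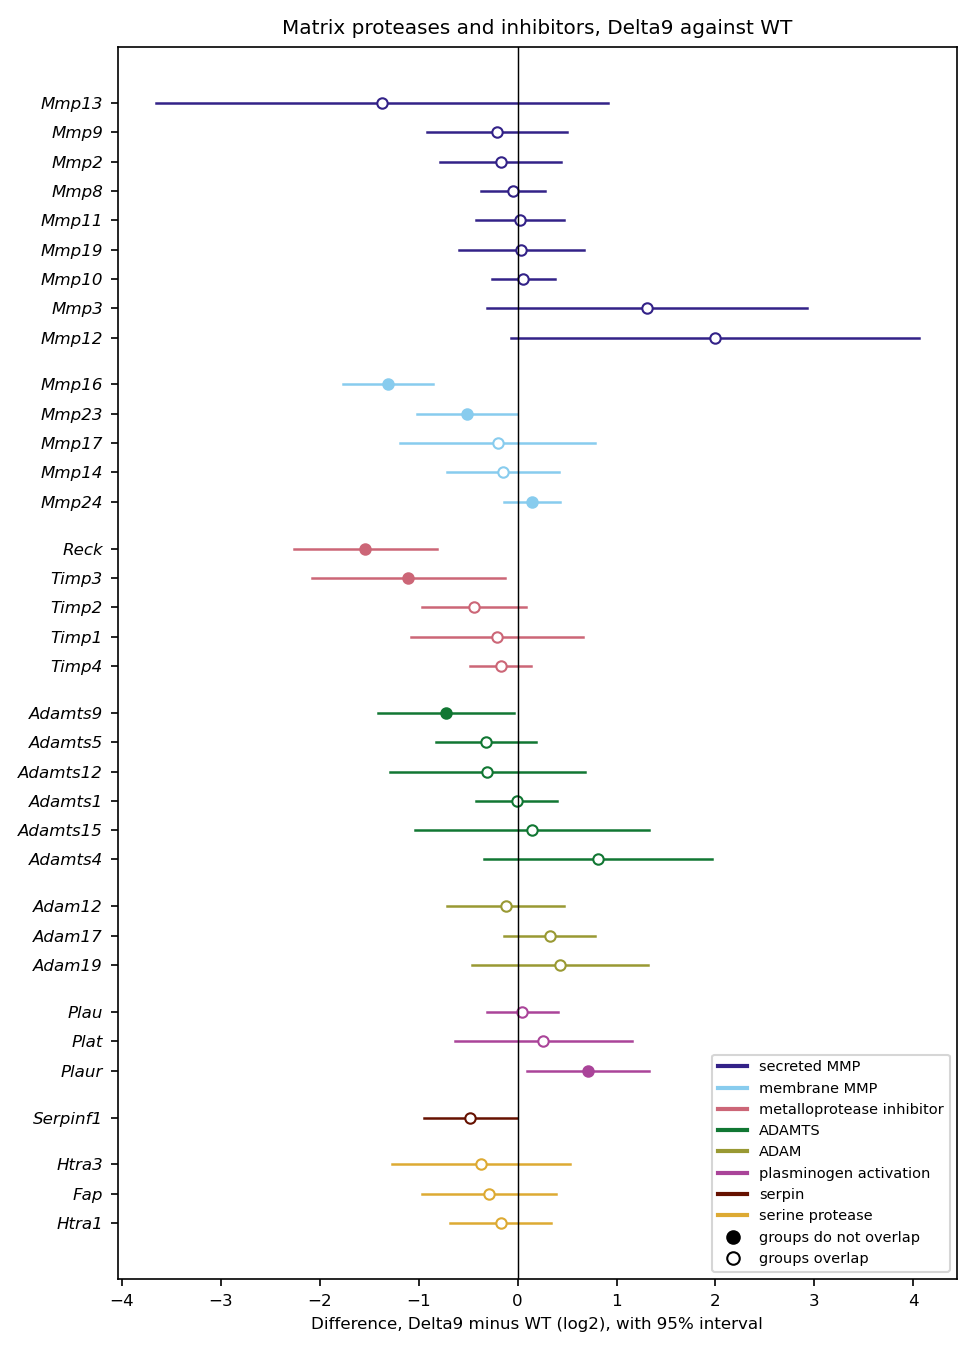
Difference of each gene between Delta9 and WT (log2, x axis) with its 95% interval, grouped by role; filled points are genes whose groups did not overlap. The intervals of Reck and Mmp16 lie farthest below 0, from -2.26 to -0.82 and from -1.77 to -0.86, while Mmp13, Mmp12 and Mmp3 have the widest intervals.

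All 5 metalloprotease inhibitors and the serpin Serpinf1 had lower mean values in Delta9, though Timp1 and Timp2 turned sign under alternatives given with each. The median difference of these 6 genes was -0.46 log2. Reck had the largest difference among the genes with lower values in Delta9. It read 6.28, 6.41 and 7.29 in Delta9 and 8.57, 7.85 and 8.17 in WT (log2), so its 3 Delta9 values lay below every WT value, with Delta9 replicate 3 the closest. The means were 6.66 ± 0.55 in Delta9 and 8.20 ± 0.36 in WT (SD, n = 3), a 2.91-fold difference (-1.54 log2, SE 0.31, adjusted p 0.209). Reck missed the threshold with all samples and passed it without Delta9 replicate 3, where the difference was -1.85 log2 (SE 0.22, limma adjusted p 0.0337). In that fit 0.445% of all genes passed, against 0.0605% with all samples.

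Timp3, the TIMP that binds to the matrix and also inhibits ADAM and ADAMTS enzymes, read 10.25, 10.02 and 8.57 in Delta9 and 10.50, 10.83 and 10.82 in WT (log2). The groups did not overlap, but Delta9 replicates 1 and 2 lay just below WT and replicate 3 lay far below. The difference was -1.10 log2 (SE 0.41, adjusted p 0.420), and without Delta9 replicate 3 it was -0.58. All 4 Timp3 probe sets were lower in Delta9, by 1.10, 0.99, 0.87 and 0.50 log2, and for 3 of them the groups did not overlap.

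Timp2, which both inhibits Mmp2 and helps Mmp14 to activate it, showed no such agreement. Its brightest probe set read 11.01, 10.77 and 11.65 in Delta9 and 11.76, 11.48 and 11.51 in WT (log2), a difference of -0.44 (SE 0.22, adjusted p 0.533). Delta9 replicate 3 lay among the WT values. The next brightest Timp2 probe set, also far above the middle of the scale, differed by 0.08 (SE 0.16), and of the 6 probe sets 2 were lower and 4 higher. With its probe sets averaged, Timp2 differed by 0.049 log2, so its direction depended on the probe set.

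Timp1, a TIMP that fibroblasts secrete in response to growth factors and cytokines, read 11.44, 11.45 and 10.05 in Delta9 and 10.96, 11.32 and 11.29 in WT (log2). Delta9 replicates 1 and 2 were above all WT samples and replicate 3 was below them, so the difference of -0.21 (SE 0.37, 95% interval -1.08 to 0.66) became 0.26 without that sample. Timp4 was dim, at 3.10 ± 0.21 in Delta9 and 3.27 ± 0.11 in WT (log2, SD, n = 3). Serpinf1, the secreted serpin PEDF, a collagen-binding serpin without inhibitory activity, was among the brightest genes on the arrays. It read 12.14, 12.09 and 11.55 in Delta9 and 12.10, 12.43 and 12.68 in WT (log2), with a difference of -0.48 (SE 0.20, adjusted p 0.468). Its groups overlapped, since WT replicate 1 lay within the Delta9 values.

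The mean of the 5 metalloprotease inhibitors on each array, relative to the mean of all arrays, was -0.24, -0.25 and -0.55 log2 in Delta9 and 0.38, 0.32 and 0.34 in WT. Reck and Timp3 carried much of this gap. Without these 2 genes, the other 3 and Serpinf1 together averaged -0.05, -0.04 and -0.40 in Delta9 and 0.09, 0.19 and 0.21 in WT. This narrow gap used the brightest Timp2 probe set (-0.44 log2), where the next brightest differed by 0.08. It was not recomputed with another Timp2 probe set. The 28 proteases averaged 0.05, 0.14 and -0.23 in Delta9 and -0.27, 0.03 and 0.28 in WT, and the groups overlapped. The 10 fibroblast markers also had lower mean values in Delta9, each of them, with a median of -0.24 log2 and a range from -1.07 (Lum) to -0.0041 (Col3a1). Their mean relative to all arrays ran from -0.31 to -0.11 in Delta9 and from 0.10 to 0.23 in WT, and the part of this in the inhibitor values was not tested. In RNA from a whole culture, fewer cells of a type and less RNA per cell cannot be told apart.

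Among the membrane-bound MMPs, Mmp16 was the gene of lowest p in the set. Mmp16, the membrane-type enzyme MT3-MMP, read 3.34, 3.99 and 3.88 in Delta9 and 5.02, 4.96 and 5.17 in WT (log2). Every Delta9 value lay well below every WT value, and the WT samples were close together (5.05 ± 0.11, SD, n = 3). The difference was -1.31 log2 (SE 0.19), or 2.48-fold, with an adjusted p of 0.0979. The Delta9 level was dim, so the fold may understate the difference. All 4 probe sets had the same sign, but the 3 dimmer ones differed by less, by -0.48, -0.52 and -0.06 log2.

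Mmp23, a membrane protease with an unusual cysteine-rich end, read 8.44, 8.28 and 8.50 in Delta9 and 8.52, 8.90 and 9.35 in WT (log2). The groups were barely separated, Delta9 replicate 3 lying just under WT replicate 1, and the difference was -0.52 (SE 0.21, adjusted p 0.463). Mmp14, the membrane-type collagenase MT1-MMP, is the main activator of Mmp2. It read 10.32, 10.47 and 9.73 in Delta9 and 9.93, 10.49 and 10.54 in WT (log2), with overlapping groups, a difference of -0.15 and a 95% interval from -0.71 to 0.42. Its other 2 probe sets differed by 0.04 and 0.16. Mmp24, with a level of 4.80 ± 0.05 in Delta9 and 4.66 ± 0.06 in WT (log2, SD, n = 3), was separated between the groups by a small difference of 0.15 (SE 0.12), and Mmp17 differed by -0.20 (SE 0.42).

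**Figure D2:**
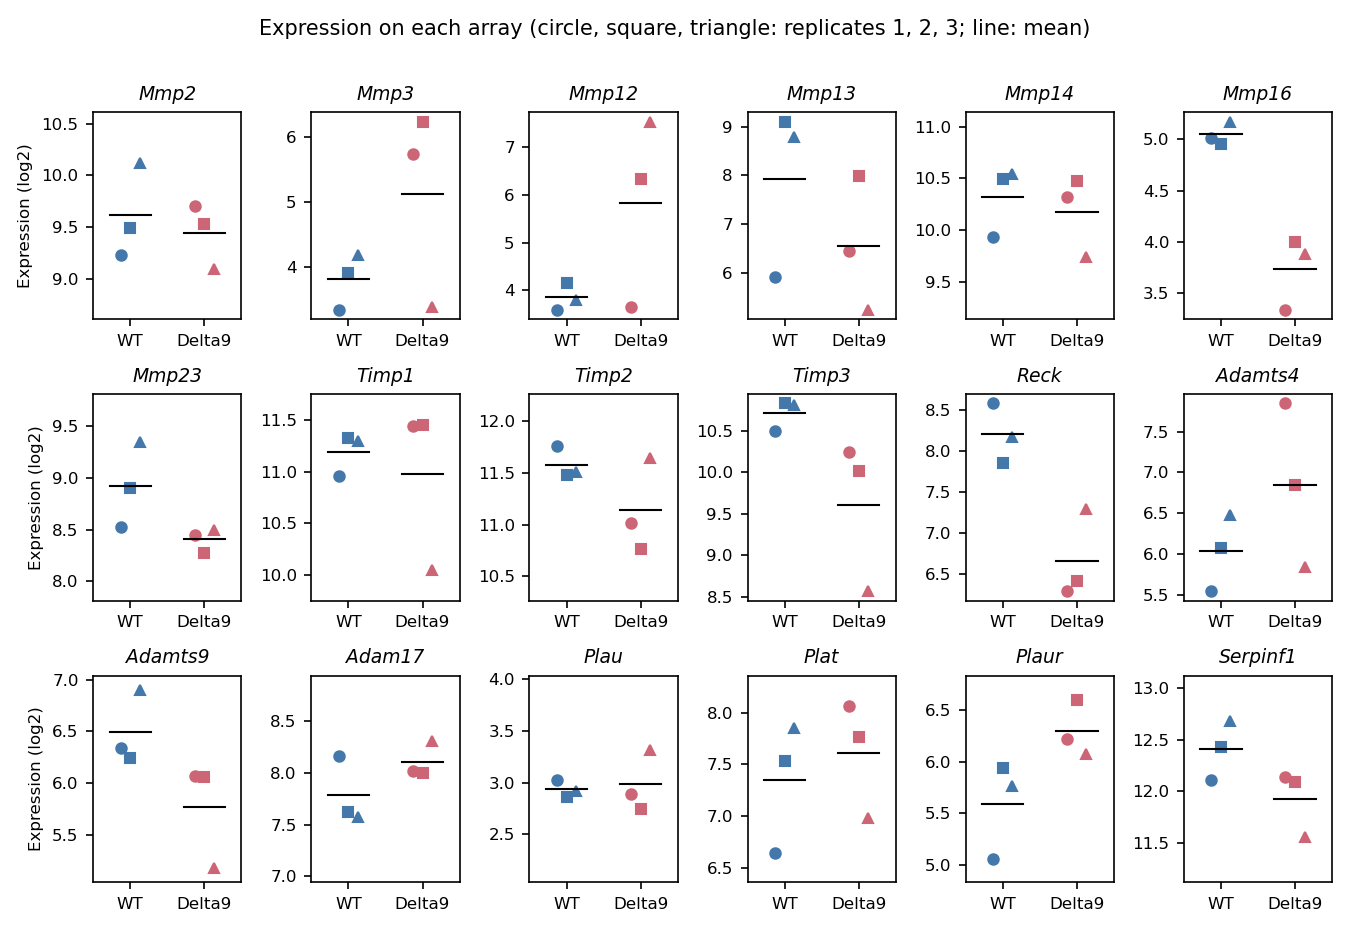
Expression (log2) of 18 genes on each array, WT in blue and Delta9 in red, with a symbol for each replicate and a line at the group mean; each panel has its own range of at least 2 log2 units. Reck, Mmp16 and Timp3 show no overlap, and Mmp3, Mmp12 and Mmp13 show single samples far from the rest of their group.

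The secreted MMPs showed differences in both directions, 5 of 9 with higher and 4 with lower mean values in Delta9, and the large ones were uneven between replicates. Mmp12, the macrophage elastase, read 3.65, 6.33 and 7.54 in Delta9 and 3.59, 4.15 and 3.80 in WT (log2). Delta9 replicates 2 and 3 were far above WT and replicate 1 was at the WT level. The difference was 2.0 log2 (SE 0.88, adjusted p 0.480), and it ran from 1.15 without Delta9 replicate 3 to 3.09 without Delta9 replicate 1. Mmp3, stromelysin 1, which cuts proteoglycans and activates other MMPs, read 5.74, 6.23 and 3.39 in Delta9 and 3.35, 3.91 and 4.18 in WT (log2). Here replicates 1 and 2 were the high ones, and replicate 3 lay within the WT values. The Mmp3 difference was 1.31 log2 (SE 0.69, limma adjusted p 0.547) with all samples. Without Delta9 replicate 3 the Mmp3 difference was 2.17 (SE 0.28, limma adjusted p 0.0420) and passed the threshold, as did 0.445% of all genes.

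Mmp13, the main interstitial collagenase of rodents, read 6.44, 7.99 and 5.24 in Delta9 and 5.91, 9.10 and 8.79 in WT (log2). WT replicate 1 stood with the Delta9 samples and the other WT samples lay above all of them. The difference of -1.38 log2 had an SE of 0.97 and an adjusted p of 0.657, and its 95% interval ran from -3.66 to 0.91. Leaving out WT replicate 1 gave -2.39, and leaving out Delta9 replicate 3 gave -0.72. Mmp2, gelatinase A, an abundant product of fibroblasts, read 9.70, 9.53 and 9.10 in Delta9 and 9.23, 9.49 and 10.12 in WT (log2). These groups overlapped, with a difference of -0.17 (SE 0.26, 95% interval -0.78 to 0.44) and -0.15 on its second probe set. The gelatinase Mmp9 differed by -0.21 (SE 0.30), Mmp11 by 0.03 (SE 0.19) and Mmp19 by 0.04 (SE 0.27), each with overlapping groups. Mmp8, the collagenase of neutrophils, was dim in every sample, between 2.76 and 3.19 log2.

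Macrophage markers had higher mean values in Delta9 beside Mmp12. All 17 of the 18 listed markers that were measured were higher, with a median difference of 1.09 log2. Their mean relative to all arrays was 0.60, 0.36 and 0.94 in Delta9 replicates 1 to 3, and 0.32, -0.41 and -1.81 in WT replicates 1 to 3. None of the defining markers Cd68, Csf1r, Adgre1, Lyz2 and C1qa was near the bottom of the scale in either group. Itgam, another marker of the list, lay below the median gene level, with means of 4.57 in Delta9 and 3.77 in WT (log2). It read 2.81 in WT replicate 3. The part of macrophage RNA in the Mmp12 difference was not tested. Neutrophil and mast cell markers were dim throughout, as all 8 and all 7 measured ones lay below the median gene level.

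**Figure D3:**
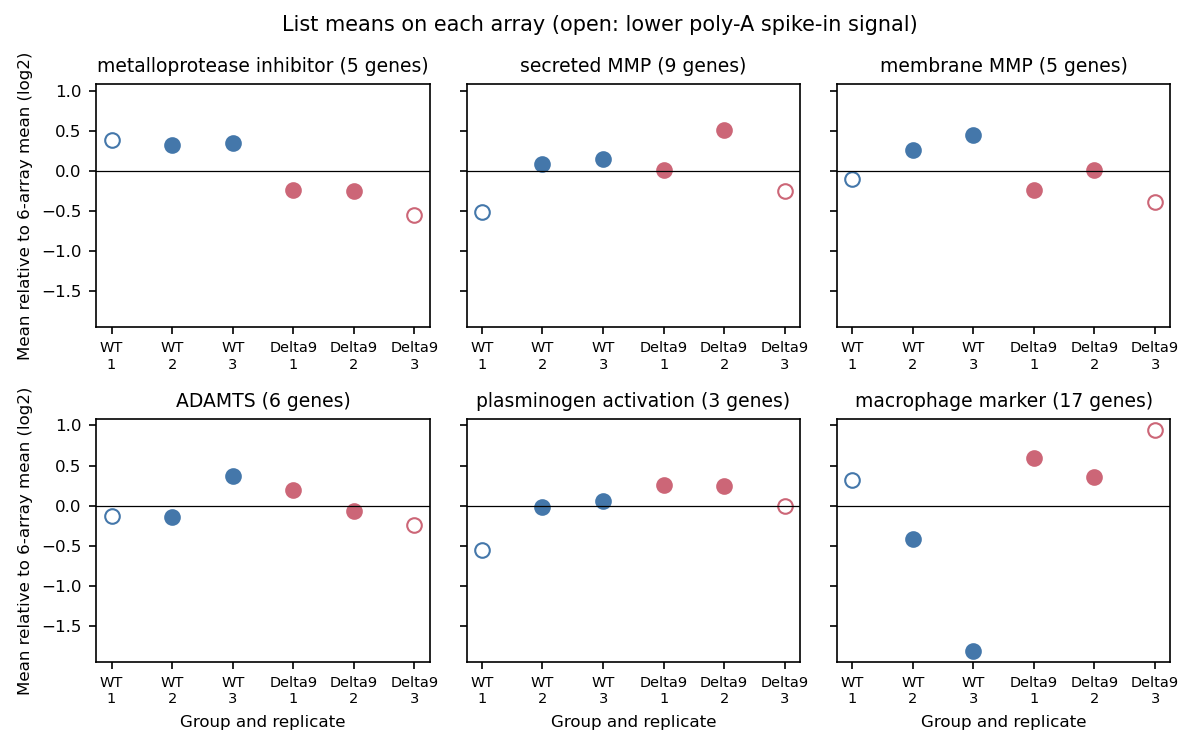
Mean of each group of genes on each array, relative to the mean of all 6 arrays (log2), with open points for the 2 arrays of lower poly-A spike-in signal. The metalloprotease inhibitors, lower in Delta9, and the macrophage markers, higher in Delta9, separate the groups, and the protease groups do not. The macrophage markers range from -1.81 on WT replicate 3 to 0.94 on Delta9 replicate 3. Their separation is narrow, with 0.36 on Delta9 replicate 2 and 0.32 on WT replicate 1.

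Mmp13, Mmp12, Mmp3, Mmp10 and Mmp8 lie in this order in 1 cluster of MMP genes on chromosome 9, between Dcun1d5 and Tmem123 in the RefSeq annotation of assembly GRCm38.p6. Neighbours in this cluster differed in sign, with -1.38 log2 (SE 0.97) for Mmp13 and 2.0 (SE 0.88) for Mmp12 next to it. The 95% intervals of these neighbours included 0. Mmp1b, Mmp1a, Mmp20 and Mmp7, the other measured genes of the cluster, were dim and differed by -0.07, -0.02, 0.08 and -0.04 log2. The AP-1 factor of Fos and Jun proteins is a textbook regulator of several of these genes, and its core recognition letters were searched in the RefSeq promoters (GRCm38.p6, 250 bases before to 50 after each start). The letters TGANTCA, which read the same on both strands, were found in 6 of the 23 measured genes that have a promoter there: Mmp13, Mmp12, Mmp3, Mmp10, Plaur and Adam19. They were found in 7.81% of all 32851 promoters of this length and in 8.97% of all genes with one. The letters TATAAA followed on the gene's strand in the 4 MMP genes. On either strand, 13.6% of all promoters, 15.7% of all genes with one and 6 of the 23 measured genes held them. In the 4 MMP genes they began at -16 from the start in Mmp13, -7 in Mmp3 and -29 in Mmp10. In Mmp12 they began at 5, after the start. For Mmp12 the match lay at the second of 2 listed starts. The stretches below show these letters in capitals, since the genes that share them gave some of the largest differences of the set, of both signs and with wide intervals. All lie on the plus strand, at chr9:7272471-7272508 for Mmp13, chr9:7347322-7347388 for Mmp12, chr9:7445768-7445825 for Mmp3, chr9:7502271-7502323 for Mmp10, chr7:24462406-24462445 for Plaur and chr11:46055845-46055884 for Adam19.
Mmp13: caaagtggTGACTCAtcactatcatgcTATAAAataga
Mmp12: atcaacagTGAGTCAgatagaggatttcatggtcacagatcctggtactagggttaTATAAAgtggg
Mmp3: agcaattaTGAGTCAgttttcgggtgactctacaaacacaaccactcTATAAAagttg
Mmp10: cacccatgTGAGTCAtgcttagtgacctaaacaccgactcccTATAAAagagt
Plaur: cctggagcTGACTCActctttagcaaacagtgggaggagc
Adam19: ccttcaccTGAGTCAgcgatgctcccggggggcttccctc
The first letter of TGANTCA lay at -35 from the start in Mmp13, -44 in Mmp12, -46 in Mmp3, -63 in Mmp10, -69 in Plaur and -131 in Adam19, counted from -1 just before the start. The differences of the 6 genes were -1.38, 2.0, 1.31, 0.06, 0.71 and 0.43 log2 in that order. Their SEs were 0.97, 0.88, 0.69, 0.13, 0.26 and 0.38, and every 95% interval but that of Plaur included 0. Whether they share a response was not tested. Mmp10, stromelysin 2, which carries the same letters as Mmp3, was dim in all samples, between 2.81 and 3.20 log2. A match of letters is a description of the sequence and not a binding site shown by these data.

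The ADAMTS genes here include the aggrecanases, which cut the cartilage proteoglycan aggrecan and its relative versican, and 4 of 6 had lower mean values in Delta9. Adamts9 read 6.07, 6.05 and 5.18 in Delta9 and 6.34, 6.24 and 6.90 in WT (log2), with no overlap and a difference of -0.73 (SE 0.29, adjusted p 0.453). Its 3 probe sets were all lower. Adamts4, aggrecanase 1, lay the other way. It read 7.84, 6.85 and 5.84 in Delta9 and 5.54, 6.08 and 6.48 in WT (log2), a difference of 0.81 (SE 0.49, adjusted p 0.601), with Delta9 replicate 3 inside the WT values and its other probe set at -0.08. Adamts5, aggrecanase 2, was lower by a small amount on all 4 probe sets, by 0.32 log2 on the brightest (SE 0.22, adjusted p 0.635). Adamts12 differed by -0.31 (SE 0.42), Adamts1 by -0.01 (SE 0.18) and Adamts15 by 0.15 (SE 0.50), the last with Delta9 replicate 3 alone at 5.54 log2 against 3.56 to 4.31 in the other samples.

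The ADAM sheddases cut proteins from the cell surface. Adam17, which releases TNF and ligands of the EGF receptor, read 8.03, 8.0 and 8.31 in Delta9 and 8.16, 7.63 and 7.58 in WT (log2). Its groups overlapped through WT replicate 1, and the difference was 0.32 (SE 0.20, adjusted p 0.601), with all 3 probe sets higher. Adam19 differed by 0.43 (SE 0.38), and Adam12, whose 2 probe sets had opposite signs, by -0.12 (SE 0.25).

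**Figure D4:**
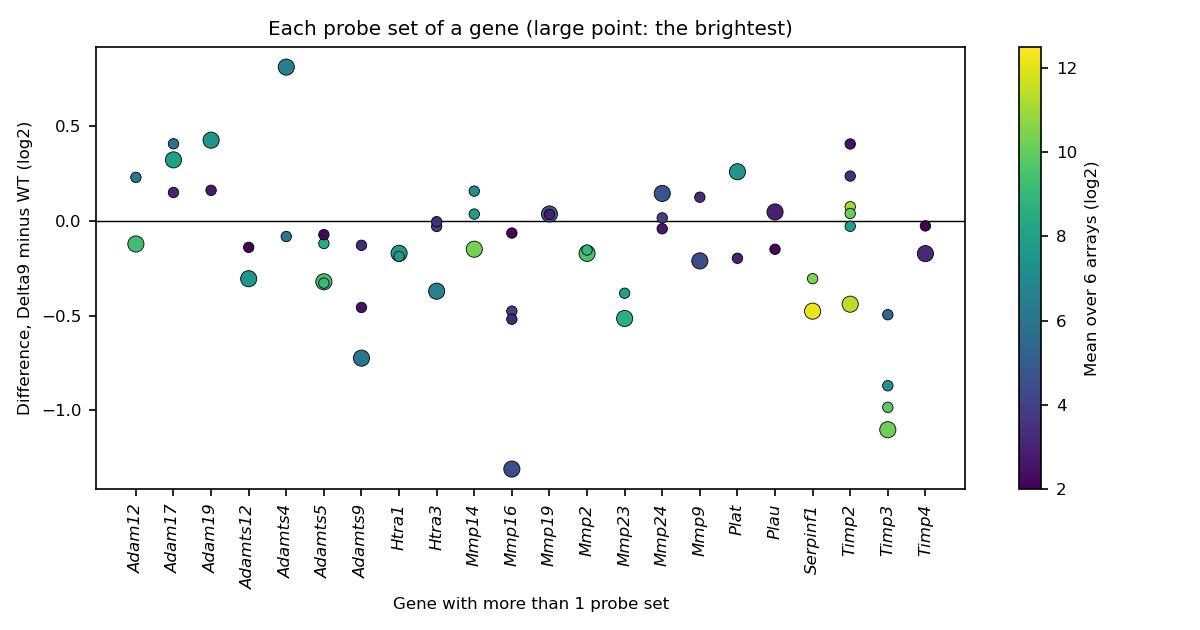
Difference between Delta9 and WT (log2) of every probe set of the 22 genes that had more than 1, coloured by its mean over 6 arrays, with the brightest as a large point. The probe sets of 14 genes, Timp3, Mmp16 and Adamts9 among them, had 1 sign, and those of 8 genes, Timp2 among them, did not.

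In the plasminogen system all 3 genes had higher mean values in Delta9, and the groups did not overlap for the receptor but did for the activators. Plaur, the urokinase receptor that gathers the activator at the cell surface, read 6.22, 6.60 and 6.07 in Delta9 and 5.06, 5.94 and 5.76 in WT (log2). All Delta9 values lay above all WT values, and the difference was 0.71 (SE 0.26, adjusted p 0.417), a 1.63-fold higher mean. Plaur is also made by macrophages, whose markers were higher in Delta9 as given above, and their part here was not tested. Plat, the tissue-type activator, read 8.07, 7.77 and 6.98 in Delta9 and 6.65, 7.54 and 7.86 in WT (log2). These values overlapped, and the difference of 0.26 (SE 0.38) was -0.090 without WT replicate 1. Plau, the urokinase that Plaur binds, was near the bottom of the scale, with 2.89, 2.75 and 3.32 in Delta9 and 3.03, 2.86 and 2.92 in WT (log2), so a difference was not detectable at this signal. The serine proteases Fap, Htra1 and Htra3 had lower mean values in Delta9, by 0.29 (SE 0.29), 0.17 (SE 0.22) and 0.37 log2 (SE 0.38), with overlapping groups. Fap, fibroblast activation protein, cuts gelatin and peptide hormones.

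Of 68 further genes of matrix proteolysis, 60 were measured and none passed the adjusted threshold (limma). At an unadjusted p under 0.05, 6 of them (10%) were lower and 3 (5%) higher, against 6.06% and 4.54% of all genes. Their median difference was -0.05 log2. The 3 higher ones were the lysosomal cathepsins Ctsz, with 0.76 (SE 0.15, adjusted p 0.199), Ctsl with 0.39 (SE 0.11) and Ctsb with 0.85 (SE 0.28). All 3, picked by p, had groups that did not overlap. Of all genes measured, 7.27% had groups that did not overlap and were higher in Delta9. Cathepsins are abundant in macrophages, whose markers were higher in Delta9, and the part of these cells was not tested. Among the lower ones, Adam23, an ADAM without protease activity, differed by -1.50 (SE 0.36, adjusted p 0.248), the proprotein convertase Pcsk6 by -0.85 (SE 0.20) and Adamts10, a protease that binds fibrillin microfibrils, by -0.56 (SE 0.17). All 9 measured genes of the further inhibitors and inducers had lower mean values, with a median of -0.13 log2 and a range from -0.63 to -0.02. None had an unadjusted p under 0.05 (limma). Of the 9, 6 lay below the median gene level, where 59.1% of all genes had lower mean values.

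Several of these values moved with single arrays. Delta9 replicate 3 and WT replicate 1 had the lowest poly-A spike-in signal, 5.20 and 4.85 log2 against 5.64 to 6.10 on the others. For 17 of the 35 genes, or 48.6%, these arrays held the lowest value of their groups, against 27.4% of all genes and 38.6% of genes above the median level; Timp1, Timp3, Mmp3, Mmp13, Mmp14 and Plat were among the 17. With this split as a block, Reck (adjusted p 0.0129) and Mmp16 (adjusted p 0.0472) passed, as did 0.819% of all genes. Within the 4 arrays of higher signal Reck passed, with -1.66 log2 (SE 0.15, limma adjusted p 0.0332), as did 0.335% of all genes. Mmp3 differed there by 1.94 (SE 0.22, limma adjusted p 0.0568). Between the remaining pair, Delta9 replicate 3 minus WT replicate 1, Reck differed by -1.29, Mmp16 by -1.14 and Mmp3 by 0.044 log2, with no test. On WT replicate 3 the 3' minus 5' signal of the actin control was 1.41 log2, against 0.51 to 0.86 on the other arrays. For the Gapdh control it was 0.51 there, within the 0.23 to 0.57 of the other arrays. The part of RNA quality in these values was not tested.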

How the data were processed

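The deposited table holds log2 probe set summaries made by the authors for 45101 probe sets on 6 Affymetrix arrays. Trizol extraction and biotin labelling are stated per the labels' protocols. How the values were summarised, background-corrected and normalized is not stated there, and base 2 was inferred from their range. Array medians ran from 3.36 to 3.43. There are no detection calls, so dim genes are described by level, and the number of arrays limits the precision.

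After 64 control probe sets were left out, 34945 probe sets had 1 gene symbol in the platform annotation, 932 had several and 9160 are unnamed here. Delta9 was compared with WT in limma 3.58.1 (R 4.3.3; lmFit, eBayes with trend, Benjamini-Hochberg over 18193 genes), with no filter or pseudocount. A second fit covered all 45037 probe sets. Figures used matplotlib 3.10.9.

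The genes and lists were chosen with earlier results of these data known. Values of each sample are given for the 12 genes of lowest p, the 4 of largest difference, and Mmp2, Mmp14, Mmp3, Mmp13, Timp1, Timp2, Timp3, Reck, Plau and Plat; from the further proteolysis genes, the 6 of lowest p are named. Alternatives were quantile normalization, a level filter, other probe set rules, other variance models, blocks and leaving out samples.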

Additional observations from a re-analysis of the deposited data

How the results depend on the processing

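Of the 18 named genes, Reck, Mmp16, Timp3, Mmp12, Mmp3, Mmp13, Plaur, Adamts9, Mmp23, Serpinf1, Adamts4 and Adam17 kept the sign of their difference under every alternative run. Adam19, Adamts5, Fap, Htra3, Timp4 and Mmp24, outside the named genes, did so too. The other variance models and the blocks cannot change a difference in this balanced design, only its p-value. Where groups did not overlap, leaving out 1 sample cannot change the sign. For the 18 named genes, 251 values under alternatives kept their sign and side of the threshold, many of them with a sign fixed in this way. Another 11 reversed in sign and 5 passed the threshold, and the cause was not tested. Leaving out 1 sample at a time moved the count over all genes between 1 (0.0055%) and 81 (0.445%). The genes of the set past the threshold ran between 0 and 2, and their median difference between -0.22 and 0.0060. At an unadjusted p under 0.05, between 2 and 6 genes of the set were lower and between 0 and 4 higher. By that rule 4.24% to 6.9% of all genes were lower and 2.96% to 6.75% higher in these fits. With the spike-in split as a block, 149 genes (0.819%), 2 genes of the set (Mmp16 and Reck) and 2 further proteolysis genes (Adam23 and Ctsz) passed. At an unadjusted p under 0.05, 6 genes of the set were then higher and 9 lower, against 9.01% and 9.04% of all genes. With only the 4 arrays of higher spike-in signal, 61 genes (0.335%) and 1 gene of the set (Reck) passed. There 5 were higher and 7 lower by that rule, against 8.17% and 7.88% of all genes. With genes above the median level only, 3 were lower by that rule, from 26 genes of the set tested, against 6.42% of all such genes.

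Samples of the same replicate number did not deviate together (correlations -0.40, 0.17 and -0.43), so no pairing by number was seen. The highest correlation, 0.59, was between Delta9 replicate 3 and WT replicate 1, the arrays of lowest spike-in signal. Deviations from a mean of 3 samples depend on each other, so this check cannot exclude a pairing. With the replicate block, limma called 0 genes in all, though 4.50% were lower and 2.91% higher at an unadjusted p under 0.05, and 3 genes of the set were lower and 2 higher.

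With single samples left out, Mmp14 ran from -0.34 to 0.070 log2, Mmp2 from -0.36 to 0.083, Plat from -0.090 to 0.57, Plau from -0.12 to 0.17 and Timp1 from -0.45 to 0.26. With a gene's probe sets averaged, Mmp14 was 0.015, Plau -0.051 and Timp2 0.049. Within the 4 arrays, Plau was -0.074 and Timp1 0.14.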

Other observations

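Replicates of 1 group differed more in these genes than in most. The SD within groups had a median of 0.39 log2 over the 35 genes, against 0.18 over all genes and 0.22 over genes above the median level. Mmp13, Mmp12 and Mmp3, genes of the chromosome 9 cluster, had within-group SDs of 1.58, 1.42 and 1.11 log2, above those of 99.9%, 99.8% and 99.5% of all genes. They were high on different arrays: Mmp13 on WT replicates 2 and 3, Mmp12 on Delta9 replicates 2 and 3, and Mmp3 on Delta9 replicates 1 and 2.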
